A study of Mus musculus with 32 samples.

Results

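Toll-like receptor genes were examined in spinal cord RNA of the G93A mouse, a transgenic model of amyotrophic lateral sclerosis. The set held 9 genes: the receptors Tlr1, Tlr2, Tlr3, Tlr4, Tlr7, Tlr9 and Tlr13, the co-receptor Cd14 and the adaptor Myd88. They were taken by symbol, all 9 were among the 42524 genes of the count table, and all 9 were tested in every fit. For 2 of them the filter on low counts, which asks for about 10 reads in at least 4 mice, was met only through G93A mice in 1 fit each: Tlr1 at 155 days, where 1 of 8 WT and 8 of 8 G93A mice reached the cutoff of 0.372 CPM, and Tlr9 at 90 days, where 3 of 8 WT and 6 of 8 G93A mice reached 0.388 CPM. Counts of members that were higher in those fits therefore leave them out. The 32 mice fell into 8 groups of 4, wild type (WT) or G93A, untreated or given OKN-007, at 90 or 155 days by their labels. The study's text places the earlier animals slightly later, close to disease onset. G93A mice carry many copies of a mutant human SOD1 gene under its own promoter, were bred on C57BL/6J, and came from 1 transgenic line, B6-Tg(SOD1-G93A)1Gur/J. WT littermates served as controls, and experimental animals in the study were predominantly female. OKN-007, a disulfonyl-phenyl nitrone with antioxidant and anti-inflammatory properties, was given to both genotypes. The labels give no dose, and by the study's methods its cohorts killed near onset and at 155 days had the higher of its doses. Human SOD1 was not analysed here.

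Toll-like receptors recognise molecules of microbes and of damaged cells. Tlr1, Tlr2 and Tlr4 act at the cell surface, Cd14 hands lipopolysaccharide to Tlr4, and Tlr3, Tlr7, Tlr9 and Tlr13 read nucleic acids inside endosomes. With the exception of Tlr3, which signals through Ticam1 (TRIF), these receptors use Myd88 to reach the Irak kinases, NF-kB and the interferon regulatory factors. In the spinal cord, microglia express most of these receptors, and Tlr3 is also found in astrocytes.

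Promoter stretches are shown for the members that rose in G93A mice and whose RefSeq window (GRCm38.p6, 250 bases before to 50 after the start) held 1 of the 3 motifs upstream of the RefSeq start and outside annotated exons. Capitals mark the motif, and each run is written 5′ to 3′ on the strand of the gene.
Tlr2, chr3:83841768-83841857, minus strand, NF-kB consensus: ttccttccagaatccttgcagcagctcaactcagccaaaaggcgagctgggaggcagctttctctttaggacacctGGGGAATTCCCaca
Tlr1, chr5:64933564-64933653, minus strand, PU box: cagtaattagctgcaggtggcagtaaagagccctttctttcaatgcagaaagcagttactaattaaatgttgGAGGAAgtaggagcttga
Tlr9, chr9:106222480-106222597, plus strand, PU box: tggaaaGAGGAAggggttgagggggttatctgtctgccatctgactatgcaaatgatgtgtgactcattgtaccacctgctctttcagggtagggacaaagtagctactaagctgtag
Tlr13, chrX:106143114-106143203, plus strand, PU box: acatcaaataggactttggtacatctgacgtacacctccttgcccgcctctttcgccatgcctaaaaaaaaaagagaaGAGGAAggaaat
Myd88, chr9:119340042-119340131, minus strand, interferon-stimulated response element core: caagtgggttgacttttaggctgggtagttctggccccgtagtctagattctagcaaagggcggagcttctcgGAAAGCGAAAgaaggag

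The table of promoters matched 6 of the 9 members; Tlr4, Tlr7 and Cd14 were not matched. The PU box (GAGGAA), the letters bound by the myeloid factor PU.1, was found on either strand in 3 of these 6 members and in 28.3% of all 32851 windows. The interferon-stimulated response element core (GAAA and GAAA, 2 bases apart) was found in 1 of 6 and in 3.44% of windows. The NF-kB consensus was found in 2 of 6, Tlr2 and Tlr3, and in 8.46% of windows. The capitals in Tlr2 hold overlapping matches to the NF-kB consensus, the first beginning 173 bases upstream of the RefSeq start. The motif began 23 bases upstream in Tlr1, 112 in Tlr9, 83 in Tlr13 and 40 in Myd88. The Myd88 stretch lies inside the longer GENCODE M21 span of that gene, given next. These motifs were chosen after the sequences were seen, and a match describes letters in the window, not binding.

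By the GENCODE M21 annotation of GRCm38, Tlr1 spans 64924679 to 64933563 on chromosome 5, Tlr2 83836272 to 83841767 on chromosome 3, Tlr4 66827584 to 66930284 on chromosome 4 and Tlr3 45395665 to 45411080 on chromosome 8. Tlr7 (167304929 to 167330558) and Tlr13 (106143204 to 106160493) lie on the X chromosome, and Tlr9 (106222598 to 106226883) and Myd88 (119335934 to 119341411) on chromosome 9. Cd14 lies on chromosome 18, from 36725067 to 36726798. Reads of some members could be shared with other genes: 513 of the 3332 distinct stretches of 50 bases in Tlr1 exons were also in other genes. Tlr6, its close paralog, held 454 of them. For Tlr4, 12 of 5551 were shared with Gm37744. For Tlr3, 288 of 5436 were shared with the antisense gene Gm45542, and for Myd88 194 of 2616 with Acaa1a on the opposite strand. The libraries were stranded, but the strand setting of the counting is not stated, so Tlr3 and Myd88 values are uncertain to that extent. Tlr1 values are uncertain through the sequence shared with Tlr6 and other genes, whatever the strand setting. For Tlr2, Tlr7, Tlr9, Tlr13 and Cd14 the number of shared stretches was 0.

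Library totals ran from 19701722 to 30138257 assigned reads, and the median mouse had 26658755. Levels are given as CPM, read counts scaled to library size with edgeR's TMM factors, and 3 counts in the smallest library amounted to 0.152 CPM, a limit for counting error only. Markers of neurons, astrocytes and oligodendrocytes, the main cells of the labelled tissue, were at 0 in no mouse. Caudal Hox genes, which mark position along the cord, summed to 227 to 273 CPM in untreated WT mice of 155 days and to 59.3 to 202 CPM in untreated G93A mice of that age. Their mean log2(CPM + 1) was lowest at 155 days in G93A mice 9, 10 and 13 (1.62, 1.62 and 2.37). At 90 days this mean was lowest in OKN-007-treated G93A mice 13 and 14 (1.95 and 1.84). Treated G93A mice 15 and 16 of that age had 3.90 and 3.83. The part of cord position in the comparisons of 90 days was not tested. Liver genes were highest at 155 days in G93A mice 12 and 15, at 186 and 128 summed CPM. The labels number the mice from 1 to 16 at each age and give no litter or dissection, and p-values measure the spread between these samples.

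In untreated WT cords of 155 days, the level per kilobase of exon was highest for Tlr3, at 3.85 ± 0.547 CPM per kb (SD, n = 4), followed by Myd88 at 2.88 ± 0.335. Cd14 (1.07 ± 0.395) and Tlr2 (1.02 ± 0.049) came next, then Tlr13 (0.398), Tlr7 (0.323), Tlr9 (0.162), Tlr4 (0.112) and Tlr1 (0.094). The mice separated Myd88 from Cd14 and Tlr2 from Tlr13 in this order, while all other neighbours overlapped. Tlr3, Myd88, Cd14 and Tlr2 also held the first 4 places in that order in every other WT group and in both G93A groups of 90 days. In untreated G93A mice of 155 days the order became Cd14 (9.17 ± 2.51 CPM per kb), Tlr2 (7.65 ± 2.11), Tlr3 (6.51 ± 0.705) and Myd88 (5.82 ± 1.09), and these 4 overlapped with their neighbours. Myd88 stood apart from Tlr7 (3.26), Tlr7 and Tlr13 (2.85) overlapped, and Tlr1 (0.951), Tlr9 (0.692) and Tlr4 (0.432) came last. With OKN-007 at 155 days, G93A mice had the same order of all 9 genes, from Cd14 (9.03 ± 0.525) to Tlr4 (0.613 ± 0.142).

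**Figure D1:**
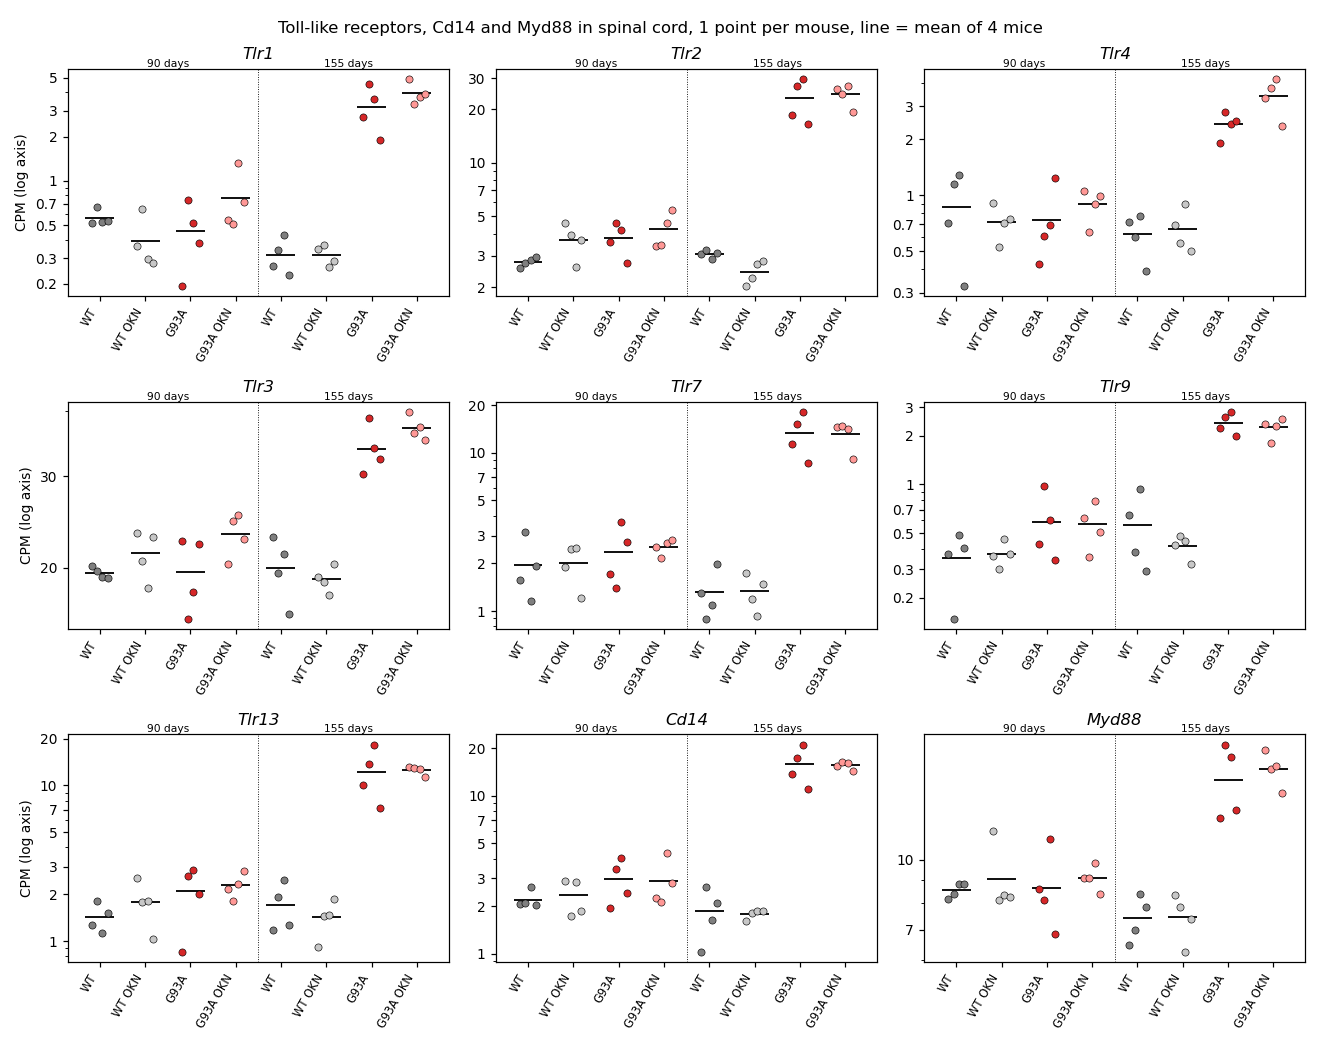
Level of each of the 9 genes (CPM, log axis) in every mouse, by age, genotype and treatment, with 1 point per mouse and a line at the mean of 4 mice. At 155 days every G93A mouse lies above every WT mouse of the same treatment for the 8 genes other than Tlr1. Of all genes tested, 15.6% showed this in untreated and 20.2% in treated mice. Tlr1 also stands apart but was tested at that age only through its G93A values. At 90 days the genotypes overlap.

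At 155 days the cords of untreated G93A mice held more transcript of each of these genes than those of untreated WT mice, a comparison that asks what differs in the disease model late in its course. Tlr1, Tlr7 and Cd14 rose most, 10.3-, 10.2- and 8.84-fold, and Tlr3 and Myd88 least, 1.749- and 2.08-fold. In this comparison 21.3% of the 18675 genes tested were higher in G93A mice, and 15.6% had G93A mice all above WT mice. Leaving aside Tlr1, which was tested only through its G93A values, 8 of 8 members were higher and 8 of 8 stood apart. Their median log2 fold change was 2.51, against 0.00 over all genes tested. Values below are from edgeR's quasi-likelihood test on the 16 mice of that age, two-sided, with Benjamini-Hochberg adjustment over all genes tested.

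Among the surface receptors, Tlr2, which senses lipoproteins together with Tlr1 or Tlr6, had 3.08, 3.24, 2.88 and 3.10 CPM in the 4 untreated WT mice and 18.7, 27.2, 29.7 and 16.7 CPM in the 4 untreated G93A mice. The lowest G93A mouse stood 5.15 times above the highest WT mouse, and the log2 fold change was 2.94 (SE 0.172, edgeR adjusted p = 2.20e-10). Tlr1 had 0.266, 0.341, 0.428 and 0.229 CPM in WT mice and 2.69, 4.53, 3.62 and 1.89 CPM in G93A mice. The WT values of Tlr1 rest on 7 to 11 reads per mouse, and mouse 12 was the lowest and mouse 10 the highest of the G93A mice. Its log2 fold change was 3.36 (SE 0.286, edgeR adjusted p = 2.72e-08). Tlr4, the receptor for lipopolysaccharide, had 0.723, 0.596, 0.777 and 0.392 CPM in WT mice and 1.91, 2.80, 2.397 and 2.50 CPM in G93A mice. The groups did not overlap, with a log2 fold change of 1.997 (SE 0.252, edgeR adjusted p = 4.51e-06).

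Of the endosomal receptors, Tlr7, a sensor of single-stranded RNA, had 1.29, 0.894, 1.09 and 1.99 CPM in WT mice and 11.3, 15.2, 18.1 and 8.56 CPM in G93A mice. Every G93A mouse was at least 4.29 times above the highest WT mouse, and the log2 fold change was 3.35 (SE 0.262, edgeR adjusted p = 9.00e-09). Tlr13, which recognises bacterial ribosomal RNA in mice, had 1.18, 1.92, 2.49 and 1.27 CPM in WT mice and 10.03, 13.7, 18.2 and 7.16 CPM in G93A mice. The groups were apart and the 4 G93A mice ranked as they did for Tlr7, with a log2 fold change of 2.89 (SE 0.265, edgeR adjusted p = 7.34e-08). Tlr9, a sensor of unmethylated CpG DNA, had 0.647, 0.383, 0.933 and 0.294 CPM in WT mice and 2.24, 2.59, 2.80 and 1.98 CPM in G93A mice. The WT mice spread widely (CV 51.0%) but stayed below all G93A mice, and the log2 fold change was 2.14 (SE 0.269, edgeR adjusted p = 4.42e-06). Tlr3, the sensor of double-stranded RNA, had 22.9, 19.6, 21.3 and 16.3 CPM in WT mice and 30.3, 38.9, 34.0 and 32.4 CPM in G93A mice. Here the gap was narrow, the lowest G93A mouse being 1.32 times the highest WT mouse, and the log2 fold change was 0.81 (SE 0.093, edgeR adjusted p = 1.46e-06).

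Cd14, the co-receptor that delivers lipopolysaccharide, had 1.03, 2.64, 1.63 and 2.09 CPM in WT mice and 13.8, 17.5, 21.1 and 11.1 CPM in G93A mice. Mouse 11 was highest and mouse 12 lowest among the G93A mice, and the log2 fold change was 3.14 (SE 0.214, edgeR adjusted p = 1.40e-09). Myd88, the shared adaptor, had 6.47, 6.98, 8.39 and 7.84 CPM in WT mice and 12.3, 17.9, 16.8 and 12.8 CPM in G93A mice. Its groups were apart by a factor of 1.47, with a log2 fold change of 1.05 (SE 0.128, edgeR adjusted p = 2.67e-06). Within the untreated G93A group, mouse 12 was the lowest for 6 of 9 genes and mouse 9 for the other 3, while mice 10 and 11 were the highest for 4 and 5.

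Markers of microglia moved with these genes. All 10 were higher in untreated G93A mice of 155 days, with summed levels of 310 to 373 CPM in WT and 1237 to 2071 CPM in G93A mice. Among them, Aif1 rose from 5.05 to 31.8 CPM (log2 fold change 2.70, SE 0.200, edgeR adjusted p = 4.17e-09) and the fractalkine receptor Cx3cr1 from 50.4 to 207 CPM (2.08, SE 0.174, edgeR adjusted p = 2.16e-08). Astrocyte markers were higher in 5 of 6 cases (4955 to 5610 summed CPM in WT, 13403 to 17151 in G93A mice), and neuron markers were lower in 6 of 6 (2443 to 3000 and 1395 to 2060). Of the 6 markers of border macrophages and monocytes 4 could be tested, Ccr2 and Pf4 only through G93A mice, and Pf4 alone was called; they summed to 2.66 to 3.53 CPM in WT and 3.70 to 5.93 CPM in G93A mice, with Ccr2 at 0 in 4 of 32 mice and Ly6c2 in 6. Of 6 neutrophil markers 1 could be tested and 0 were called; their sum in these mice lay between 0.190 and 1.71 CPM, with Ly6g at 0 in 19 of 32 mice. None of 6 lymphocyte markers could be tested at this age (at most 0.716 summed CPM in these 8 mice, with Nkg7 at 0 in 19 of 32 mice). The part of these cells in the members' differences was not tested, and in bulk tissue more cells of a type and more RNA per cell cannot be told apart. Caudal Hox genes were lower in 4 of 9 cases in the same comparison. Without the 3 mice of lowest Hox score, and without the 2 mice with the most liver transcript, 8 of 8 members other than Tlr1 were still called. In the fit of all mice of that age 21.3% of genes were higher and 18.2% lower in untreated G93A than in untreated WT mice. Untreated G93A mice 11 and 12, which stayed in the Hox refit, had caudal Hox sums of 202 and 169 CPM, still below the untreated WT mice (227 to 273 CPM). The part of cord position in these differences was not tested.

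Relative to the microglia markers the members did not move alike. The geometric mean of the 10 markers was 19.3 ± 1.08 CPM in untreated WT and 79.0 ± 17.7 CPM in untreated G93A mice of 155 days (SD, n = 4 each). The log2 ratio of a gene to this mean, G93A minus WT, was 1.34 for Tlr7, 1.14 for Cd14 and 0.86 for Tlr2. For these the G93A mice were all above the WT mice, as in 1.57% of all genes tested. Tlr1 (1.29) also stood above but is left out here, as it was tested only through its G93A values. For Tlr13 the ratio difference was 0.81, for Tlr9 0.21 and for Tlr4 -0.03, and the groups overlapped. For Tlr3 it was -1.24 and for Myd88 -1.01, with the G93A mice all below the WT mice, which 90.8% of genes showed. With OKN-007 at 155 days Tlr7, Cd14, Tlr2 and Tlr13 (0.97) stood above, where 1.70% of genes did. Tlr3 (-1.24) and Myd88 (-1.11) stood below, as did 93.3% of genes, and Tlr4 (0.16) and Tlr9 (0.23) overlapped. Tlr1 again stood above and is left out for the same reason. At 90 days these differences lay between -0.67 (Tlr1, untreated) and 0.65 (Tlr1, OKN-007), and of 18 pairs of groups only Myd88 in untreated mice (-0.23) did not overlap. At that age 0.201% of genes stood above and 4.13% below in untreated mice, and 0.196% above and 12.1% below in treated mice. These ratios are a description without a test, and they depend on the chosen markers, which themselves rose by between 0.39 (P2ry12) and 3.86 (Fcrls) on the log2 scale.

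**Figure D2:**
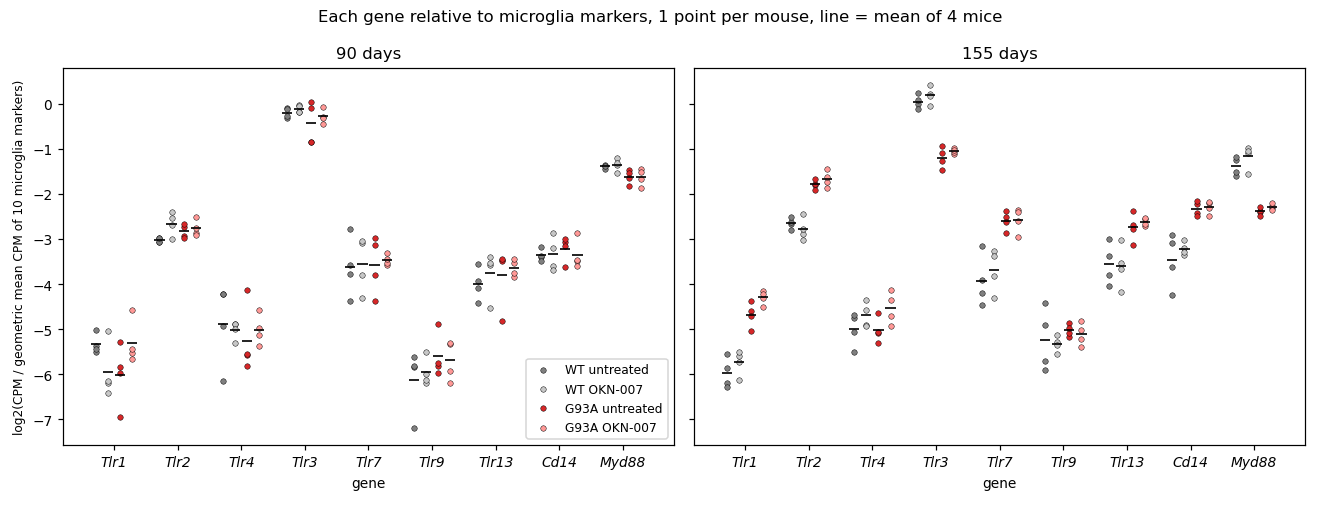
Each gene relative to microglia markers, as log2 of its CPM over the geometric mean CPM of 10 markers, with 1 point per mouse and a line at the mean of 4, by age. At 155 days Tlr1, Tlr2, Tlr7 and Cd14 lie higher in G93A than in WT mice, Tlr3 and Myd88 lie lower, and Tlr4 and Tlr9 overlap. Tlr1 was tested at that age only through its G93A values.

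OKN-007-treated G93A mice of 155 days were compared with OKN-007-treated WT mice, which are other animals than those above. Leaving aside Tlr1, 8 of 8 members were higher (23.3% of genes tested were) and in 8 of 8 the groups were apart (20.2% of genes with G93A mice above). Tlr2 had 2.04, 2.26, 2.70 and 2.80 CPM in WT mice and 26.0, 24.5, 27.2 and 19.4 CPM in G93A mice, a 10.4-fold difference (log2 3.38, SE 0.176, edgeR adjusted p = 4.97e-11). Tlr1 was 13.01-fold higher, Tlr7 10.4-fold, Tlr13 9.21-fold and Cd14 9.17-fold, on the fitted scale. Tlr9 and Tlr4 were 5.60- and 5.40-fold higher, and Myd88 and Tlr3 2.24- and 2.06-fold. Tlr3 and Myd88 had the lowest folds in both treatments. Mouse 16 was the lowest of the 4 treated G93A mice for 7 of 9 genes.

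**Figure D3:**
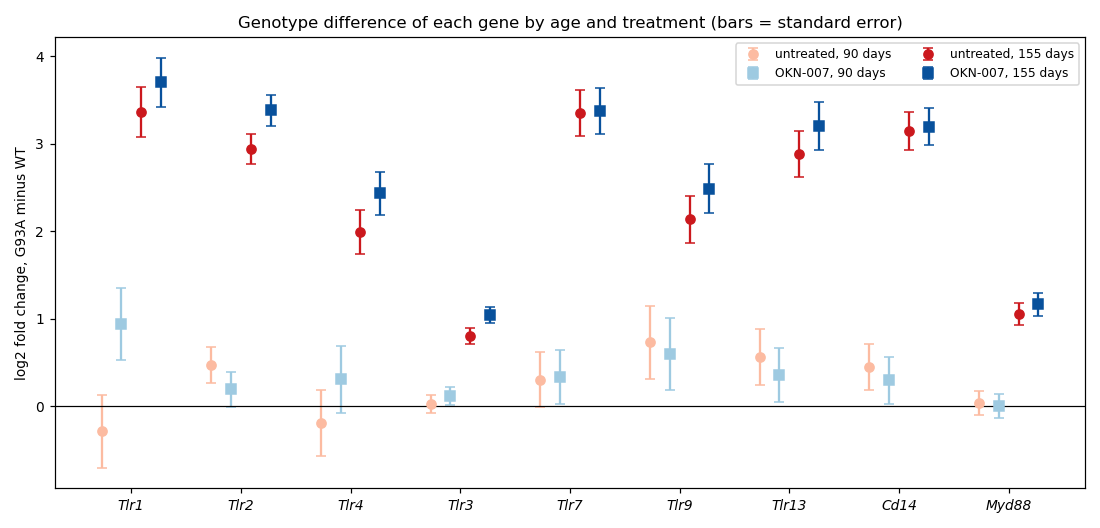
Log2 fold change of G93A over WT mice for each gene, in untreated (circles) and OKN-007-treated (squares) mice at 90 days (light) and 155 days (dark), with bars of 1 standard error. At 155 days all 18 values lie between 0.81 and 3.70, while at 90 days they lie between -0.28 and 0.94.

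At 90 days, near the onset of signs, 0 of the 9 genes were called by edgeR's quasi-likelihood test in either treatment, where 0% of 18899 genes were called in each. In untreated mice, Tlr2 had 2.57, 2.75, 2.85 and 2.94 CPM in WT and 3.62, 4.58, 4.22 and 2.76 CPM in G93A mice. Mice 9, 10 and 11 stood above all WT mice and mouse 12 within their range, with a log2 fold change of 0.47 (SE 0.205, edgeR adjusted p = 0.822). It was the only member at an unadjusted p under 0.05, and 5.96% of genes were. Cd14 had 2.05, 2.08, 2.63 and 2.04 CPM in WT and 1.94, 3.46, 4.05 and 2.41 CPM in G93A mice, which overlapped (0.45, SE 0.267, edgeR adjusted p = 0.853). Tlr9 (0.73), Tlr13 (0.57), Tlr7 (0.31), Myd88 (0.04) and Tlr3 (0.03) were also above 0 on the log2 scale, and Tlr4 (-0.19) and Tlr1 (-0.28) below. The median was 0.17 over the 8 members other than Tlr9, and adjusted p-values by edgeR lay between 0.822 and 0.986. At this age 0 of 9 members had all G93A mice above all WT mice, as 0.958% of genes did in untreated and 1.81% in treated mice.

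In OKN-007-treated mice of 90 days the log2 differences between G93A and WT ran from 0.00 for Myd88 to 0.94 for Tlr1. Over the 8 members other than Tlr9, which was tested only through G93A mice, the median was 0.30, against 0.01 over all genes. The share of all genes above 0 was not computed. Tlr1 had 0.362, 0.641, 0.294 and 0.279 CPM in WT and 0.543, 0.514, 1.32 and 0.715 CPM in G93A mice. The groups overlapped through WT mouse 6, and Tlr1 was the only member at an unadjusted p under 0.05 (log2 SE 0.414, edgeR adjusted p = 0.9996), as were 3.95% of genes. Averaged over both treatments, 0 of 9 members were called against 0.0265% of genes (5 genes, or 3 to 54 with 1 mouse left out, 54 without untreated G93A mouse 12), with the lowest adjusted edgeR p at 0.677 (Tlr2, log2 0.33, SE 0.143). Tlr2 and Tlr9 (0.67, SE 0.294) and 6.61% of genes were at an unadjusted p under 0.05. Microglia markers were called in 0 of 10 cases at this age, with summed levels of 370 to 413 CPM in untreated WT and 365 to 549 CPM in untreated G93A mice.

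The genotype difference was larger at 155 than at 90 days for all 9 genes in both treatments, tested as the difference of differences in 1 fit of all 32 mice. In untreated mice 12.9% of 19829 genes were higher by this test and in treated mice 2581 genes, or 13%. Tlr1 had the largest untreated value, 3.64 (SE 0.494, edgeR adjusted p = 1.92e-06), and Tlr3 the smallest, 0.76 (SE 0.140, edgeR adjusted p = 0.000162). Tlr7 (3.03), Cd14 (2.69), Tlr2 (2.47), Tlr13 (2.31), Tlr4 (2.17) and Myd88 (1.003) lay between. For Tlr9 the difference of 1.40 (SE 0.478, edgeR adjusted p = 0.0347) was lost when any 1 of 9 mice was left out, with WT mice 1, 3 and 4 and G93A mice 9 and 12 among those of 90 days and WT mice 2 and 4 and G93A mice 10 and 11 among those of 155 days. Adjusted p-values for Tlr9 ran from 0.00695 to 0.107 over its alternatives, and without the 3 mice of lowest Hox score it was 0.0853. In treated mice the largest value was 3.15 for Tlr2 (SE 0.265, edgeR adjusted p = 4.98e-10) and the smallest 0.89 for Tlr3 (SE 0.140, edgeR adjusted p = 1.87e-05).

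Between the ages, untreated G93A mice rose in all 9 genes and untreated WT mice were called in 0, by edgeR in the same fit. In G93A mice 4155 genes, or 21%, were higher at 155 days and 15.5% stood apart upward, against 9 of 9 members for both. Tlr1 rose from 0.459 to 3.18 CPM (log2 2.82, SE 0.323), Tlr2 from 3.79 to 23.0 CPM (2.63, SE 0.182) and Myd88 from 8.67 to 14.99 CPM (0.81, SE 0.133), with edgeR adjusted p-values of 3.43e-08, 1.92e-12 and 1.55e-05. In WT mice, where 24.9% of genes were called in either direction (4933 genes, and 3115 without WT mouse 4 of 90 days), the member values ran from -0.83 for Tlr1 to 0.67 for Tlr9. Tlr1 had 0.522, 0.669, 0.526 and 0.531 CPM in WT mice of 90 days and was lower in all 4 WT mice of 155 days, as were 8.11% of genes. That difference had an edgeR adjusted p of 0.103, Tlr1 being the only member at an unadjusted p under 0.05 where 37% of genes were, and it rests on 7 to 18 reads per mouse. Mice of the 2 ages are different animals, and library preparation by age is not stated, so age and preparation cannot be told apart.

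The effect of OKN-007 was asked within each genotype and age, and 0 of 9 members were called in any of the 4 comparisons by edgeR's quasi-likelihood test (0% of genes in each). In G93A mice of 155 days, 4.04% of genes and 1 member, Tlr4, were at an unadjusted p under 0.05. Tlr4 had 1.91, 2.80, 2.397 and 2.50 CPM without and 3.33, 3.74, 4.21 and 2.35 CPM with OKN-007. Treated mice 13, 14 and 15 stood above all untreated mice and mouse 16 within their range, with a log2 difference of 0.52 (95% interval 0.06 to 0.97, edgeR adjusted p = 0.9996). For the other 8 genes the interval spanned 0, as for Tlr2 (0.09, -0.22 to 0.40), Cd14 (-0.01, -0.39 to 0.37), Tlr7 (-0.01, -0.46 to 0.45) and Myd88 (0.10, -0.16 to 0.35). The intervals of all 9 lay between -0.58 and 0.97, so a change of more than 1 log2 unit in either direction lay outside every interval. Which smaller changes lay inside differed from gene to gene. The CV was lower in treated than in untreated G93A mice for 8 of 9 genes, among them Cd14 (5.82% and 27.3%) and Tlr9 (14.3% and 15.1%), and higher for Tlr4 (23.2% and 15.4%), a difference that was not tested. The share over all genes was not computed. Summed microglia markers also ran over a narrower range in treated (1483 to 1809 CPM) than in untreated G93A mice (1237 to 2071 CPM).

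In WT mice of 155 days Tlr2 was the only member whose groups stood apart, with 2.04 to 2.80 CPM in treated and 2.88 to 3.24 CPM in untreated mice, as did 0.771% of genes in the downward direction. Its log2 difference was -0.35 (95% interval -0.75 to 0.06, edgeR adjusted p = 1), and 0 members were at an unadjusted p under 0.05, where 2.94% of genes were. The OKN-007 effect in G93A minus that in WT mice was above 0 for all 9 genes at 155 days, from 0.02 for Tlr7 to 0.44 for Tlr2. The median was 0.32, against 0.01 over all genes, and the share of all genes above 0 was not computed. The members share the makeup of each sample, so their signs are not 9 separate results. Of the 9, 0 were called, 0 were at an unadjusted p under 0.05 (2.34% of genes) and all 9 intervals spanned 0. At 90 days, Tlr3 in G93A mice had 22.5, 15.97, 17.9 and 22.3 CPM without and 20.3, 24.6, 25.3 and 22.7 CPM with OKN-007, which overlapped. That difference was 0.22 (95% interval 0.01 to 0.44, edgeR adjusted p = 0.837), and 5.56% of genes were at an unadjusted p under 0.05. In WT mice of 90 days, Tlr2 differed by 0.42 (-0.01 to 0.85) and Tlr1 by -0.48 (-1.37 to 0.41), and both overlapped, with 0 members and 4.07% of genes at an unadjusted p under 0.05. The treatment effect on Tlr1 differed between genotypes at 90 days by 1.23 (SE 0.588, edgeR adjusted p = 0.9999), where 2.81% of genes were at an unadjusted p under 0.05.

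**Figure D4:**
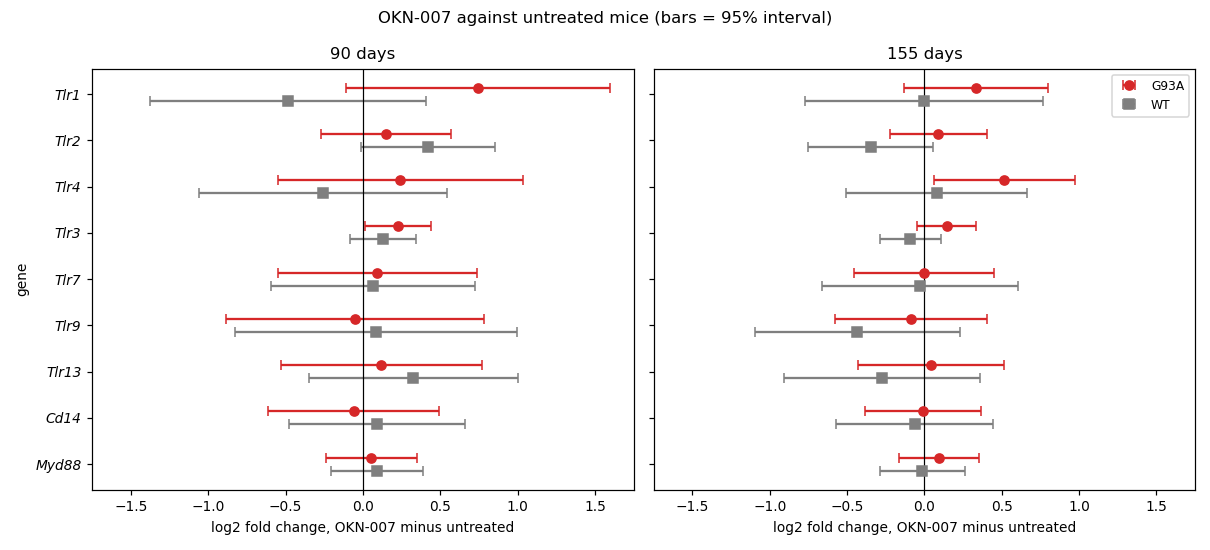
Log2 difference between OKN-007-treated and untreated mice for each gene, in G93A (red circles) and WT mice (grey squares), at 90 and 155 days, with bars of the 95% interval. The intervals in G93A mice of 155 days lie between -0.58 and 0.97, and 8 of 9 span 0.

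Around these genes, 61 other genes of the pathway were listed by role, of which 55 could be tested at 155 days. Tlr8, Cd36, Tnf, Il1b, Ccl3 and Cxcl10 passed the filter at that age only through G93A mice and are left out of the counts. Of the other 49, in untreated mice 30 were higher in G93A mice, or 61.2% against 21.3% of all genes tested, and 5 were lower, or 10.2% against 18.2%. Their median log2 fold change was 0.56, against 0.00 over all genes. The lists, like the 9 members, were chosen with earlier results of these data known, so these shares are a description and not a test. Among other receptors 2 of 3 were higher, with Tlr6, the other partner of Tlr2, at 0.547 and 1.95 CPM (log2 1.88, SE 0.279) and Tlr12 at 0.488 and 1.08 CPM (1.202, SE 0.351), and Tlr5, the flagellin receptor, was not called. Tlr8, a further RNA sensor, had 2 reads over the 4 WT mice and 67 over the 4 G93A mice, a ratio of 34.2 after library size (exact 95% interval 9.12 to 289, counting error only). Of the 5 other adaptors 4 were higher, with Ticam2, the bridge between Tlr4 and TRIF, at 3.41 (SE 0.209), the PI3K adaptor Pik3ap1 at 2.45 (SE 0.194) and Ticam1 at 1.16 (SE 0.127), while Sarm1, known for its role in axon degeneration, fell by 0.61 on the log2 scale (SE 0.126). Of 7 accessory proteins 5 were higher, led by Cd180 (3.27, SE 0.267) and its partner Ly86 (3.003, SE 0.200), and the folding chaperones were not among them. The scavenger receptor Cd36, tested only through G93A mice, stood at 2.46 (SE 0.399). Of 6 tested endogenous ligands 4 were higher, led by the matrix genes Tnc (2.09, SE 0.208), Bgn (1.28, SE 0.152) and Vcan (0.87, SE 0.166).

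Downstream, the kinases and ligases divided: 6 of 14 were higher, 3 lower and 5 not called. Irak4 (1.55, SE 0.116), which Myd88 recruits first, and Ikbke (1.497, SE 0.196) led, and Irak2 (0.60, SE 0.169) followed. The lower ones were Tab3, Traf3 and Tbk1. All 6 transcription factors were higher, with Irf8 at 5.13 and 47.3 CPM (3.26, SE 0.204), Irf5 (2.54, SE 0.161) and Irf7 (2.28, SE 0.222). Of 8 inhibitors 3 were higher and 1 lower: Nlrc5 (2.29, SE 0.255), the deubiquitinase Tnfaip3 (1.67, SE 0.192) and Irak3 (0.65, SE 0.148) rose, and Cyld fell by 0.31 (SE 0.076) on the log2 scale. The output cytokines were tested only through G93A mice, so no count is given over them. Among them, the chemokines stood, in WT and G93A mice, at 0.170 and 12.3 CPM for Ccl3 (log2 6.18, SE 0.278) and 0.176 and 5.93 CPM for Cxcl10 (5.11, SE 0.503). The cytokines Tnf (0.0595 and 0.759 CPM) and Il1b (0.0906 and 0.786 CPM) had 6 and 10 reads over the 4 WT mice. Genes of these lists named as higher or lower were picked among those called, so an adjusted p under 0.05 by edgeR was fixed by that choice. The highest was 0.0451 for Tbk1. For Cd36, Ccl3 and Cxcl10, tested only through G93A mice, the call adds no support. Sarm1, Cyld, Il1b, Tab3, Traf3 and Tbk1 were named after their values were seen. In treated mice of 155 days 31 of the same 49 were higher, or 63.3% against 23.3% of all genes, and 4 lower, or 8.16% against 18.2%. At 90 days and in every OKN-007 comparison and its interaction 0 of the listed genes were called, of 52 tested at 90 and 55 at 155 days.

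**Figure D5:**
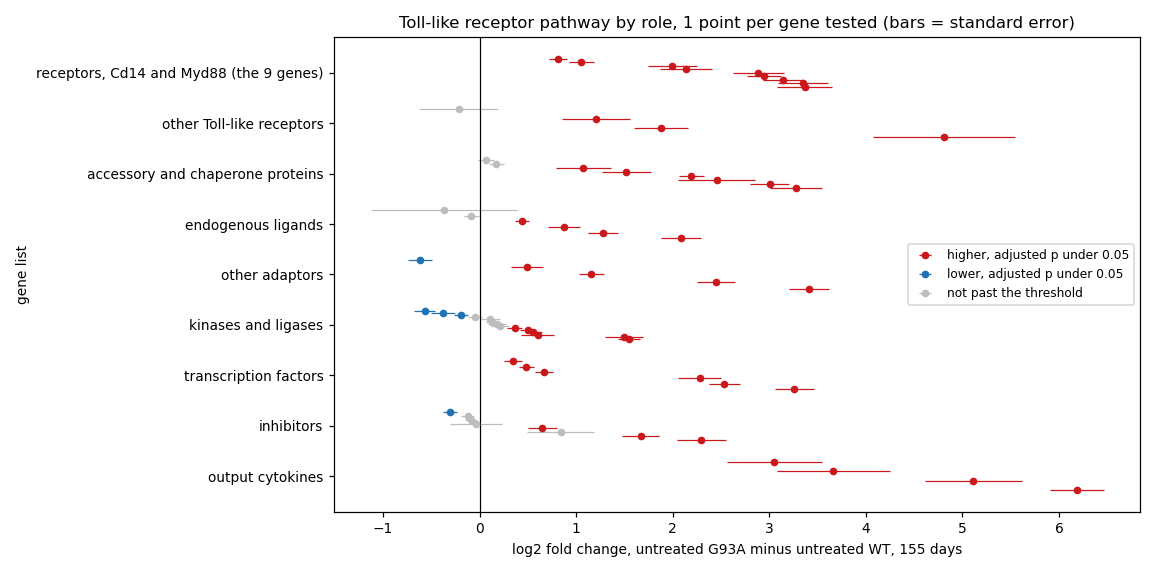
Log2 fold change of untreated G93A over untreated WT mice at 155 days for the 9 genes and the other listed genes of the pathway, 1 point per gene tested, grouped by role, with bars of 1 standard error and colours for the direction of the call. All 6 transcription factors lie above 0 as called, whereas kinases and inhibitors lie on both sides.

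Across the 32 mice, with each group's own mean taken out, the members followed each other only loosely. Of 36 pairs 32 had a Pearson r above 0, with a median of 0.28 and a range of -0.23 to 0.67. Among 15517 genes, the pattern most like that of Tlr2 was that of Hvcn1 (r = 0.86), followed by Cst7 (0.84) and Cd68 (0.82). For Tlr7 it was Stk32a and Mertk (both 0.85) and Galnt7 (0.84), for Tlr13 Gm11808 and C1qb (both 0.78) and Serpine2 (0.77), and for Tlr1 Ctsd, Cd48 and Plcg2 (all 0.77). Cd14 was most like Cyba (0.81), Nlrp3 (0.80) and Rpl32 (0.79), and Myd88 most like Rasal3 (0.85), Lmbr1l (0.82) and Pld4 (0.79). Tlr3 was closest to Klf3 (0.84), Mitf (0.82) and Jmjd1c (0.79). Tlr9 (Adamts5 0.68, Nfam1 0.67, Itgam 0.64) and Tlr4 (H6pd 0.64, Zfp53 0.64, Prom2 0.60) had lower leading values. The points share library depth and the makeup of each sample, and these correlations of log2(CPM + 1) are descriptions without a test.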

How the data were processed

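Spinal cord RNA of 32 mice was sequenced (TRIzol, TruSeq Stranded mRNA, NextSeq 500). The authors deposited raw read counts per gene. Their methods name Trimmomatic, STAR, GRCm38, HTSeq and GENCODE M10, whereas the submitters' processing notes name FastQC, STAR, featureCounts, edgeR and the builds GRCm39, mm39 and hg38, so the counter, the build and its strand setting were not settled. GENCODE M21, which gave positions and exon lengths, matched 41218 of 42524 genes (96.9%). Groups followed the labels, 4 mice each. Counts were filtered (filterByExpr), scaled by TMM and tested with edgeR 4.0.16 in R 4.3.3 (quasi-likelihood, two-sided, Benjamini-Hochberg over all genes, adjusted p under 0.05), per age on 16 mice and for age on 32. Code was tested on simulated data. Alternatives were DESeq2 1.42.0, the likelihood ratio test, other factors and filters, sva 3.50.0, a Hox covariate, a replicate block and single mice left out. Members and lists were chosen with earlier results of these data known. Up to 3 genes per pathway list were named, the most changed among those called, and the 3 most alike per member (mean CPM of at least 1). Of 48 pairs within groups 0 held identical counts, and the chi-square per gene was at least 3.57.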

Additional observations from a re-analysis of the deposited data

Results flagged for a closer look

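In 4 of the 72 sets of 4 mice (9 genes in 8 groups) the gap of 1 mouse to its nearest neighbour, over the whole range, exceeded Dixon's critical value at the 95% level, and chance flags about 1 in 20. Tlr1 in untreated WT mice of 90 days was highest in mouse 2, at 0.669 CPM (gap over range 0.937). Cd14 in the same group was highest in mouse 3, at 2.63 CPM (0.936). Myd88 in OKN-007-treated WT mice of 90 days was highest in mouse 5, at 11.6 CPM (0.939). Tlr7 in OKN-007-treated G93A mice of 155 days was lowest in mouse 16, at 9.16 CPM (0.874).

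The G93A minus WT difference was greater at 155 than at 90 days, as a log2 value called by edgeR, for each gene in both treatments. In untreated mice it was 3.64 for Tlr1, 2.47 for Tlr2, 2.17 for Tlr4, 0.76 for Tlr3, 3.03 for Tlr7, 1.40 for Tlr9, 2.31 for Tlr13, 2.69 for Cd14 and 1.003 for Myd88. In OKN-007-treated mice it was 2.73 for Tlr1, 3.15 for Tlr2, 2.09 for Tlr4, 0.89 for Tlr3, 3.01 for Tlr7, 1.86 for Tlr9, 2.81 for Tlr13, 2.87 for Cd14 and 1.13 for Myd88. Microglia markers moved with these differences, and their part was not tested. Of 19829 genes tested for the same difference between ages, 2558 were called higher in untreated and 2581 in treated mice. The untreated call for Tlr9 was lost in 13 of 27 alternatives, among them 9 of the 16 with single mice left out.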

How the results depend on the processing

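Tlr1 and Tlr9 were counted throughout here, also in the fits where they were tested only through G93A mice. Many repeats under other settings set 0 members against a reported 0, so their agreement adds no support to the calls. The number of members called equalled the reported one in 299 of 321 repeats. In the rest it was 8 of 9 with a fold of at least 1 on the log2 scale also required (155 days, untreated, and both age differences; 7 for untreated G93A mice between ages), or the 6 or 7 members left by a minimum of 10 counts, all called. It was 8 for the untreated age difference, where Tlr9 was lost, without a filter (adjusted p = 0.0800 by edgeR), with the Hox covariate (0.0504), with only the compared groups (0.107), without the 3 mice of lowest Hox score (0.0853, chosen after seeing the data) and with single mice left out (8 to 9 members). The cause was not tested. Leaving out single mice gave 9 or 0 in every other comparison, as reported. Replicate numbers did not pair the samples (16 pairs, r from -0.231 to 0.353, median -0.0846, 4 over 0.1, 1 best with its own number). With the replicate block the 4 comparisons over both ages gave 9, 9, 0 and 9 members, as without it.

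Counts over all genes moved more. Requiring the fold took 7378 calls to 1717 (untreated, 155 days), 7747 to 1888 (OKN-007, 155 days), 4211 to 1416 and 4557 to 1434 (age differences), 4933 to 495 (WT between ages) and 6687 to 1602 (G93A between ages). For G93A against WT at 90 days, 5 averaged calls became 110 without a filter, 66 by DESeq2, 64 by the likelihood ratio test, 28 with sva, 21 with all mice fitted and 2 with the fold or with 10 counts. Untreated, 0 became 39 without a filter, 16 by DESeq2, 11 by the likelihood ratio test and 1 with all mice. With OKN-007, 0 became 24 without a filter, 3 by DESeq2, by the likelihood ratio test and with only the compared groups, and 1 with sva. For OKN-007 effects, 0 became 8 (G93A, 90 days), 14 (WT, 90), 3 (interaction, 90), 17 (G93A, 155), 10 (WT, 155) and 8 (interaction, 155) without a filter, and 1 to 4 for WT mice and the interaction at 155 days by DESeq2, the likelihood ratio test, sva or all mice. With single mice left out, the 5 averaged calls at 90 days became 3 (without WT mouse 1, 3, 4 or 7 or G93A mouse 10, 11 or 15), 8 (WT mouse 2), 12 (G93A mouse 9) or 54 (G93A mouse 12), which also took the untreated count from 0 to 4. WT mouse 4 of 90 days took 4933 to 3115 (WT between ages), and WT mouse 4 of 155 days took 0 to 3 (OKN-007 in WT) and 0 to 1 (interaction). DESeq2 called 0 members wherever edgeR did. Depth limits Tlr1 and Tlr9, with 4 to 24 reads in untreated WT mice, and also Tlr4, with 8 to 34 reads in those of 90 days and 12 to 20 in those of 155 days.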
